A study of Homo sapiens with 2 samples.

Results

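The endoplasmic reticulum (ER) chaperones, folding enzymes and ER-associated degradation (ERAD) factors were examined as a list of 38 genes, chosen by symbol with earlier results of these data known. Of these, 37 were matched to 56 probes of the arrays through the RefSeq accession of each probe, out of 17240 genes matched in all. CREB3L2 matched no probe, so it has no ratio here and enters only the counts of promoter windows. On all 56 probes 1 or both RNAs were flagged above background in each hybridization, so 37 of 37 matched members were measured, among 16153 measured genes in all. SKOV3, a human ovarian adenocarcinoma line grown as adherent cells, was infected with lentivirus of the pLKO.1-puro vector and selected with puromycin. The clone cl-sh3 carried a short hairpin RNA against RUNX2, and the control was a mock clone with the same vector holding a scramble hairpin. Labelled cRNA of cl-sh3 and of control was hybridized together on 2-colour Agilent arrays, with cl-sh3 in Cy5 in hybridization 1 and in Cy3 in hybridization 2. The same RNAs of cl-sh3 and control went into each hybridization, so the arrays count as 1 replicate, no test between the clones could be made and no p-value is given. Because each arm was 1 clone, the effect of the hairpin and a difference between clones cannot be told apart.

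Values are log2 ratios of cl-sh3 over control, with the sign turned in the dye swap, so that a negative value means a lower level in cl-sh3. Each gene is given by its brightest probe, and a gene was called lower or higher when it passed the stated fold in the same direction in both hybridizations. RUNX2, the targeted gene, was at -2.04 and -1.30 in hybridizations 1 and 2 by its brightest probe, while its other probes averaged 0.02 and -0.23. The software flagged between 77.3% and 93.9% of spots as well above background in the RNA of a clone, and 0 spots as saturated. All 11 epithelial and ovarian carcinoma markers looked for were flagged, with brightest probes between 7.59 and 16.41 on the log2 intensity scale. The 10 leukocyte, endothelial and fibroblast markers with a probe were flagged too, between 7.36 and 10.23, so this flag did not separate cell types.

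Proteins that enter the ER are folded by HSP70 and HSP90 type chaperones, by the lectins calnexin and calreticulin and by disulfide isomerases, and those that fail to fold are passed through the membrane to the proteasome by ERAD. When unfolded proteins accumulate, the sensors IRE1, ATF6 and PERK start the unfolded protein response. IRE1 splices XBP1 mRNA, ATF6 is released by the site-1 and site-2 proteases, and both resulting factors act on ER stress elements in the promoters of chaperone and ERAD genes, while PERK raises translation of ATF4, which acts on genes of amino acid supply and stress signalling. HSPA5 (BiP), the main HSP70 of the ER, and HERPUD1, a membrane protein of the ERAD ligase complex, are among the classic targets of this response, and HERPUD1 is known to respond to both the ER stress element branches and ATF4.

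The list did not move as a whole. Its median log2 ratio was 0.01, against 0.01 over all measured genes, and the members lay between -1.27 and 0.59. HERPUD1 was the only member past 2-fold lower in each hybridization, 1 of 37 members or 2.7%, where 0.514% of all measured genes were called. No member was at least 2-fold higher, 0 of 37, where 0.136% of all genes were called. At 1.5-fold, HERPUD1, HSPA5 and EDEM3 were lower, 3 of 37 or 8.11%, against 2.6% of all genes, and 0 of 37 were higher, against 1.6% of all genes. By direction alone, 11 members (29.7%) were lower in both hybridizations, against 28.4% of all genes. Higher in both were 15 members (40.5%), against 30.9% of all genes. The remaining 11 members (29.7%) changed sign between hybridizations, against 40.7% of all genes. Counted by a mean that exceeded the difference between hybridizations, 9 members (24.3%) were lower, against 19.3% of all genes, and 10 members (27.0%) were higher, against 19.9% of all genes. The median of the remaining 35 members without HSPA5 and HERPUD1 was 0.07, with a middle range between the quartiles from -0.14 to 0.24. The hybridizations differed by a median of 0.157 over the members and 0.228 over all genes, which is technical error only.

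**Figure D1:**
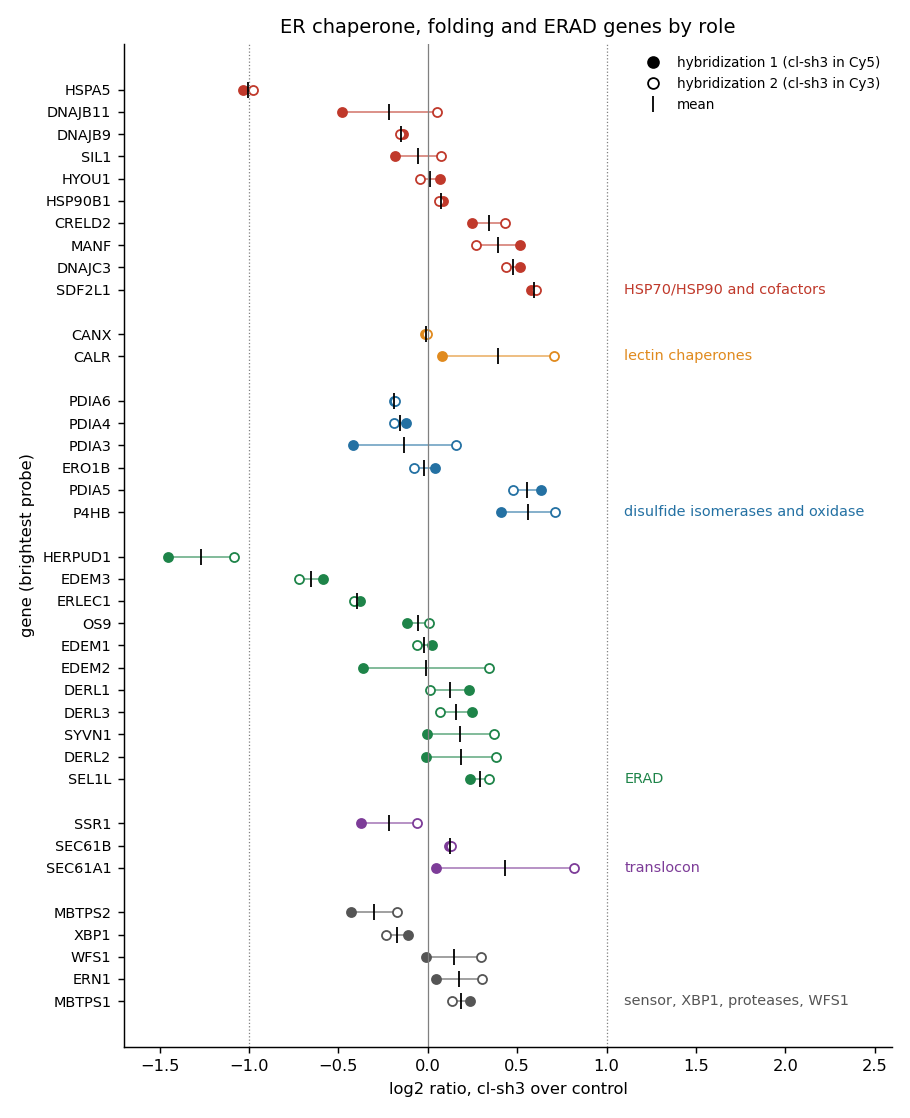
Log2 ratio of cl-sh3 over control (horizontal axis) for the 37 measured members, grouped by role, with hybridization 1 as filled circles, hybridization 2 as open circles and their mean as a black tick; dotted lines mark 2-fold. HERPUD1 lies past the 2-fold line in both hybridizations, HSPA5 lies on it, and the other 35 genes lie between -0.72 and 0.82 in every hybridization.

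The promoter windows of 4 members are shown because they hold the elements on which the unfolded protein response factors act, in the gene that was lowest, in the other marker chaperone, in the transcription factor of the response and in SDF2L1, which had the highest mean of the members. They are the 250 bases before the RefSeq start in GRCh38.p14, written 5′ to 3′ on the strand of the gene. Capitals mark the ER stress element (ERSE, CCAAT and CCACG with 9 bases between), its second form (ERSE-II, ATTGG and CCACG with 1 base between) and the composite C/EBP-ATF element (TGATGNAA), each read on both strands. Both stress elements contain CCACG, and no member held both.
HERPUD1, chr16:56931892-56932141, forward strand: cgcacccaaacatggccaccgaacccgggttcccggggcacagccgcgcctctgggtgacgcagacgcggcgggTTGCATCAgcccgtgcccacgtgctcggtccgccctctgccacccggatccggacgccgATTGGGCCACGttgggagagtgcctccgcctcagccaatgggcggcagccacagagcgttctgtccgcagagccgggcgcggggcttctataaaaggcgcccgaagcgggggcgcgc
HSPA5, chr9:125241344-125241593, reverse strand: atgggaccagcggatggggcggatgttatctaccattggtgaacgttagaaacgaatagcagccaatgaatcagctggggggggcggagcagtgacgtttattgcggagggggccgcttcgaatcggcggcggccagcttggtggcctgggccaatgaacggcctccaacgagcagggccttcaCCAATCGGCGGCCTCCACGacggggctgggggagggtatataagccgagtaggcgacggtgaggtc
XBP1, chr22:28800570-28800819, reverse strand: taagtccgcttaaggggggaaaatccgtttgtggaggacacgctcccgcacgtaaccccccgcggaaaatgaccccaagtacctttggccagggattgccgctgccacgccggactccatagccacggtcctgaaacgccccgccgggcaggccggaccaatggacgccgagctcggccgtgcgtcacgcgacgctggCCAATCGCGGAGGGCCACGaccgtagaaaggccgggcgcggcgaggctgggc
SDF2L1, chr22:21642052-21642301, forward strand: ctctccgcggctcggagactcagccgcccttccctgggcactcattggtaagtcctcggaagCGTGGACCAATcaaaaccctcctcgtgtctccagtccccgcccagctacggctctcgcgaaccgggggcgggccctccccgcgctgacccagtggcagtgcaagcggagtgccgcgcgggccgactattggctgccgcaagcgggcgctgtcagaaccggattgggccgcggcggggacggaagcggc
HERPUD1 holds an ERSE-II from 117 to 107 bases before its start and a composite element, on the reverse strand, from 176 to 169 bases before it. In HSPA5 the ERSE runs from 66 to 48 bases before the start, and in XBP1 from 52 to 34. The ERSE-II of SDF2L1 lies on the reverse strand, from 188 to 178 bases before the start. A further RefSeq window of XBP1, from another start, holds none of these motifs and is not printed.

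The 35 members with a window include CREB3L2, which has no ratio and whose window held none of these motifs. Among these 35, an ERSE was found in 8 (22.9%), against 0.074% of all 35116 windows. The 8 were CALR, CANX, CRELD2, ERO1B, HSP90B1, HSPA5, PDIA6 and XBP1. An ERSE-II was found in 3 (8.57%), HERPUD1, HYOU1 and SDF2L1, against 0.0513% of windows. The composite element was found only in HERPUD1 (2.86%), against 3.14% of windows. These 11 members with an ERSE or ERSE-II spanned the whole range of the list, from -1.27 in HERPUD1 to 0.59 in SDF2L1, with a median of -0.01, and 5 were lower and 4 higher in both hybridizations. The 23 measured members whose window held neither had a median of 0.12 and lay between -0.65 and 0.56, with 6 lower and 9 higher in both. Of all genes, 28.4% were lower and 30.9% higher in both. HERPUD1, HYOU1 and SDF2L1, which share the ERSE-II, had means of -1.27, 0.01 and 0.59. PDIA3, DERL1 and DERL3 had no window in the table. A member was counted once if any of its windows held the motif, whereas the shares over all windows count each window. The members were chosen as genes of the kind on which the stress elements act, so their higher shares are not a result of these data. A match of letters is not a bound site, and no match says only that these letters were not in this window.

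**Figure D2:**
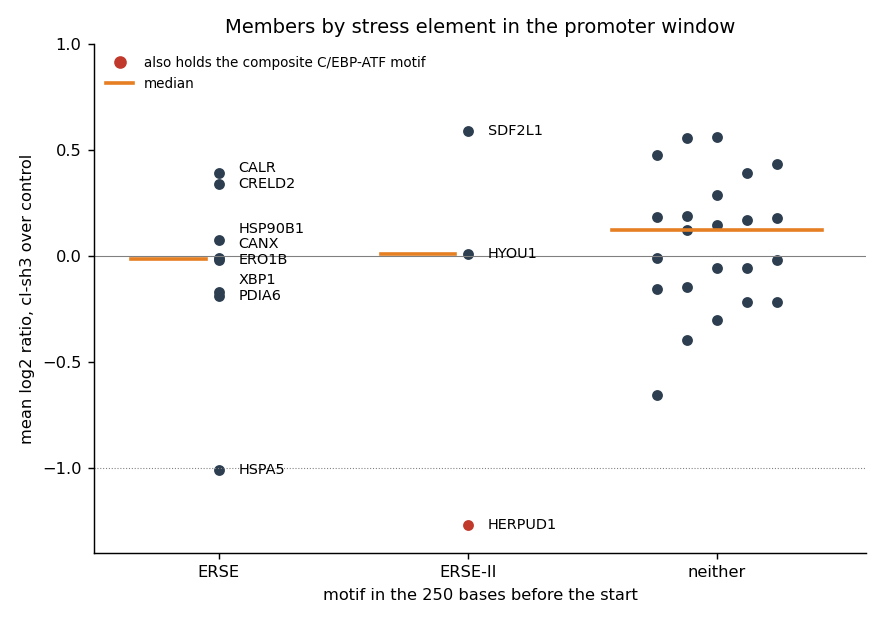
Mean log2 ratio of cl-sh3 over control (vertical axis) for members whose 250 bases before the start hold an ERSE (8 genes), an ERSE-II (3 genes) or neither (23 genes), with the median of each class as an orange line and HERPUD1, which also holds the composite element, in red. Each class has genes near 0, and HSPA5 and HERPUD1 lie apart from the genes that share their element.

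HERPUD1 was the lowest member in cl-sh3. Its normalized intensity was 32724 in cl-sh3 and 89716 in control in hybridization 1, and 35230 and 74854 in hybridization 2. Both readings of control lay above both readings of cl-sh3, and the log2 ratios were -1.46 and -1.09, with a mean of -1.27 or 2.41-fold. HERPUD1 ranked 53 from the lowest of 16153 genes. The array carried 1 probe for it, so no other probe could be set beside this value, and HERPUD1 was named for these arrays by the study itself, so its selection was not independent of the data. With the scanner software's own ratios it stood at -1.59 and -0.91, just short of 2-fold in hybridization 2, and 0 members then met the 2-fold rule.

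HSPA5 gave different answers by probe. The brightest probe read 6386 in cl-sh3 and 13094 in control in hybridization 1, and 5724 and 11286 in hybridization 2, with log2 ratios of -1.04 and -0.98 and a mean of -1.01 or 2.01-fold. This placed HSPA5 at rank 122 from the lowest and just outside the 2-fold rule, which hybridization 2 missed. The dimmer probe, designed on the same transcript accession, read 4761 and 4730 in hybridization 1 and 3375 and 4175 in hybridization 2, with log2 ratios of 0.01 and -0.31 and a mean of -0.15. Both RNAs were well above background on both probes, so detection does not separate them, and the mean of the probes was -0.58. Among the 5204 accessions with several kept probes the distance between the lowest and highest probe mean had a median of 0.18, and 121 (2.33%) were at least as far apart as the 0.86 of HSPA5. Of the 14 such accessions among the members, the other 13 were closer, up to 0.57 in MBTPS1. A lower level of HSPA5 in cl-sh3 therefore rests on 1 of its probes.

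**Figure D3:**
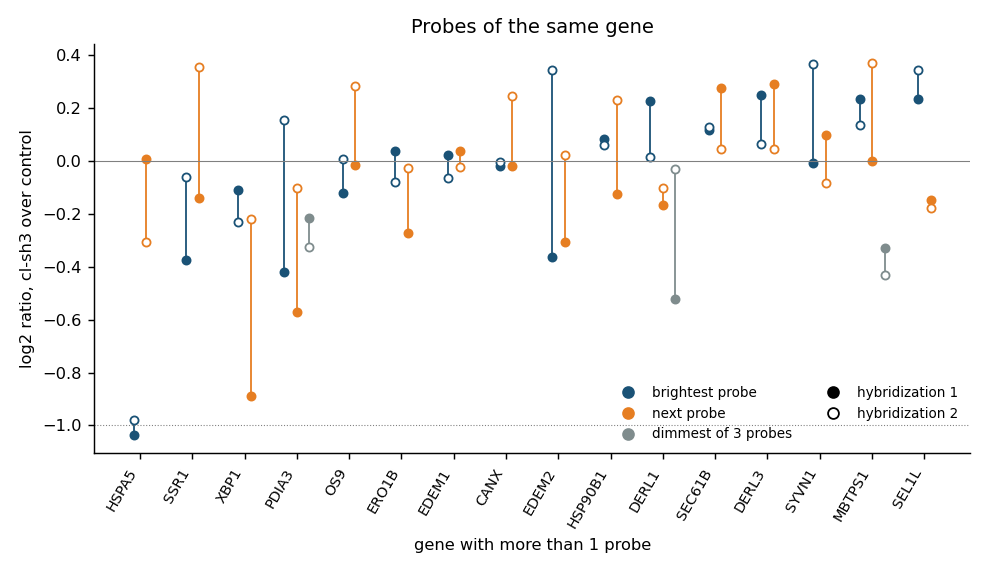
Log2 ratio of cl-sh3 over control (vertical axis) for each probe of the 16 members with more than 1 probe, ordered by the brightest probe's mean, with filled circles for hybridization 1, open circles for hybridization 2 and colours from the brightest to the dimmest probe. The brightest HSPA5 probe stands at about 2-fold lower, whereas all other probes shown have means nearer to 0.

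Of the other listed members of the HSP70 and HSP90 systems, HSP90B1, HYOU1 and SIL1 were not lower along with HSPA5. HSP90B1 (GRP94), the HSP90 of the ER and the partner of HSPA5 in folding, read 0.09 and 0.06, and its dimmer probe -0.12 and 0.23. HYOU1 (GRP170), an exchange factor for HSPA5, read 0.07 and -0.05. SIL1, the other exchange factor, read -0.19 and 0.07. None of these 3 genes had a mean further from 0 than 0.07 in either direction. HSPA13, an HSP70 family gene outside the member list and counted with a related list below, was lower at -0.78 and -1.02.

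The J-domain cofactors, which deliver substrates to HSPA5 and start its ATPase cycle, went different ways. DNAJB9 (ERdj4), a classic target of XBP1, read -0.14 and -0.15. DNAJB11 (ERdj3) read -0.48 and 0.05, so its hybridizations did not share a sign. DNAJC3 (p58IPK) was higher, at 0.52 and 0.43, and its intensities of 1613 and 1275 in cl-sh3 lay above those of 1126 and 944 in control. SDF2L1, which works with DNAJB11, had the highest mean of the list, at 0.58 and 0.60. P4HB led instead with the scanner software's ratios (0.61 against 0.59) and with the deposited ratios, PDIA5 (0.63) in hybridization 1 alone and SEC61A1 (0.82) in hybridization 2 alone. The intensities of SDF2L1 were 25755 and 24280 in cl-sh3 and 17233 and 15972 in control, a mean of 1.51-fold, with hybridization 1 short of the 1.5-fold rule. MANF and CRELD2, small secreted or luminal ER stress proteins, were higher in both hybridizations, MANF at 0.51 and 0.27 and CRELD2 at 0.25 and 0.43. In all, 2 of the 10 genes of this group were lower in both hybridizations, against 28.4% of all genes. Higher in both were 5 of the 10, against 30.9% of all genes, and the group median was 0.04.

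Of the lectin chaperones, which hold glycoproteins during folding, calnexin (CANX) read -0.02 and -0.01. Calreticulin (CALR) read 0.08 and 0.70, which share a sign but differ by 0.62, more than their mean of 0.39. CALR intensity was 39154 in cl-sh3 and 37008 in control in hybridization 1, and 48375 and 29694 in hybridization 2. The higher level of CALR thus came almost wholly from hybridization 2.

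The disulfide isomerases, which form and rearrange disulfide bonds, were split. P4HB (PDI), the founding member of the family, read 0.41 and 0.71, with intensities of 29184 and 34325 in cl-sh3 against 21998 and 20950 in control. PDIA5 read 0.63 and 0.48. Both were higher in each hybridization by a mean that exceeded the difference between hybridizations, at 1.47-fold each. These were 33.3% of the group, against 19.9% of all genes that were higher by that rule. PDIA6 was slightly lower, at -0.19 and -0.19, and so was PDIA4 (ERp72), at -0.12 and -0.19. PDIA3 (ERp57), which works with calnexin and calreticulin, read -0.42 and 0.16 by its brightest probe, with means of -0.34 and -0.27 by its other probes. The oxidase ERO1B, which passes oxidizing power to PDI, read 0.04 and -0.08. The group median was -0.08.

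Of the 11 ERAD genes, HERPUD1 and EDEM3 (18.2%) were at least 1.5-fold lower, against 2.6% of all genes, and the ligase core was not. EDEM3, a mannosidase that trims glycans of misfolded proteins, read -0.59 and -0.72, with intensities of 970 and 873 in cl-sh3 against 1457 and 1439 in control, or 1.57-fold. Its relatives EDEM1 and EDEM2 did not share this, with EDEM1 at 0.02 and -0.06 and EDEM2 at -0.36 and 0.34. ERLEC1, a lectin that reads such trimmed glycans, was lower at -0.38 and -0.42, with intensities of 2338 and 2191 in cl-sh3 against 3037 and 2923 in control. OS9, the lectin of the same kind, read -0.12 and 0.01. The 3 ERAD genes (27.3%) that were lower in both hybridizations, against 28.4% of all genes, were therefore HERPUD1, EDEM3 and ERLEC1. Each had 1 probe.

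The membrane ligase complex to which HERPUD1 belongs did not follow it. SYVN1 (HRD1), the ubiquitin ligase, read -0.01 and 0.37. SEL1L, its substrate-receiving partner, read 0.24 and 0.34 by its brightest probe and -0.15 and -0.18 by its dimmer one, so the probes had opposite signs. The derlins, membrane proteins of the retrotranslocation channel, lay between -0.01 and 0.38 in both hybridizations by their brightest probes. DERL1 read 0.23 and 0.01, DERL2 -0.01 and 0.38, and DERL3 0.25 and 0.07. The dimmer probes of DERL1 had means of -0.13 and -0.28. The median of the 11 ERAD genes was -0.01.

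In the translocon, through which proteins enter the ER, SEC61A1, the channel subunit, read 0.05 and 0.82. These hybridizations differed by 0.77, the widest gap in the list. SEC61B, a small subunit of the channel, read 0.12 and 0.13, and SSR1, of the translocon-associated complex, read -0.37 and -0.06, with its other probe at a mean of 0.11. None of these translocon members passed 1.5-fold in both hybridizations. SEC61G, outside the member list and counted with a related list below, was higher at 0.85 and 0.99.

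Of the 5 measured sensor, transcription factor and protease genes and WFS1, none passed 1.5-fold in both hybridizations. MBTPS2 and XBP1 (40.0%) were lower by a mean larger than the difference between hybridizations, against 19.3% of all genes. MBTPS1 (20.0%) was higher by the same rule, against 19.9% of all genes. ERN1, which encodes IRE1, read 0.04 and 0.30, with control not well above background in hybridization 2. XBP1 read -0.11 and -0.23 by its brightest probe, with intensities of 16413 and 14521 in cl-sh3 against 17692 and 17050 in control. A dimmer XBP1 probe, on the accession of another transcript, read -0.89 and -0.22, which share a sign and differ by 0.67. What part of the transcript each probe reads is not given in the sources used here, so splicing of XBP1 was not measured. MBTPS1, the site-1 protease, read 0.24 and 0.14, and its dimmest probe averaged -0.38. MBTPS2, the site-2 protease, read -0.43 and -0.17, and WFS1, a membrane protein of calcium handling in the ER, read -0.01 and 0.30.

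**Figure D4:**
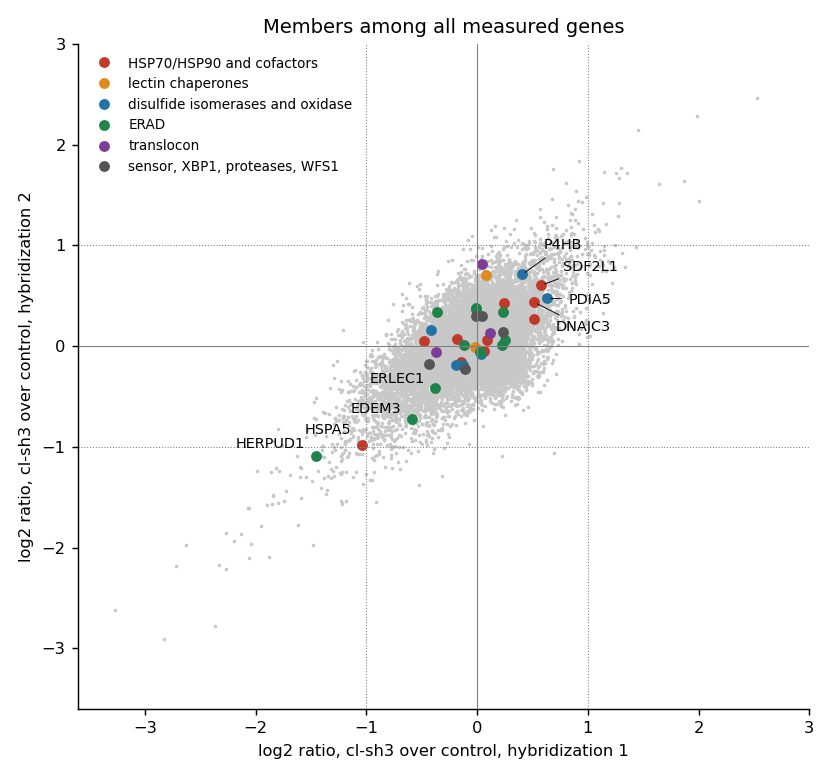
Log2 ratio of cl-sh3 over control in hybridization 1 (horizontal axis) against hybridization 2 (vertical axis) for 16153 measured genes in grey and the 37 members in colour by role; dotted lines mark 2-fold. Most members lie inside the cloud of all genes around 0, with HERPUD1 and HSPA5 at its lower left edge.

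Lists of related genes were written with the lower level of ATF4 target genes in these data already known, and are described beside the members by counts and medians. In the list of other ER folding and glycosylation genes, 0 of 46 measured genes were called at 2-fold, 2 were lower and 1 higher at 1.5-fold, and the median was -0.05. Other ERAD genes had 0 of 47 at 2-fold, 2 lower and 2 higher at 1.5-fold, and a median of 0.06. The translocon, signal recognition particle and signal peptidase genes had 0 of 22 at 2-fold, 2 higher at 1.5-fold and a median of -0.02, and the ER to Golgi transport genes 0 of 35 at 2-fold, 2 higher at 1.5-fold and a median of 0.10. The 11 genes of the ATF6 branch and OASIS factors had 0 past either fold and a median of 0.00. At 1.5-fold, 2.6% of all genes were lower and 1.6% higher. By direction, 43.5% of the other folding and glycosylation genes were lower and 17.4% higher in both hybridizations, and their median was -0.19 in hybridization 1 and -0.04 in hybridization 2. Of the ER to Golgi genes, 25.7% were lower and 51.4% higher in both, against 28.4% and 30.9% of all genes.

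The PERK and ATF4 branch stood lower than those lists. Of its 23 measured genes, 9 (39.1%) met the 2-fold rule in the lower direction, against 0.514% of all genes, 0 were 2-fold higher, and the median was -0.65. At 1.5-fold 11 were lower and 1 was higher, BBC3, a cell death gene, at 1.01 and 0.82. The 9 were TRIB3 (-2.94), ASNS (-2.08), DDIT3 (-2.06), NUPR1 (-1.73), PSAT1 (-1.54), ATF4 (-1.42), DDIT4 (-1.41), CEBPB (-1.34) and ATF3 (-1.25), given as means. The count was 7 when probes were averaged per gene, which lost ATF4 and CEBPB, and 6 with the dimmest probe, which lost TRIB3 too. The calls of ATF4, CEBPB and TRIB3 thus rest on the brighter probes. The other 6 were called under either choice, which cannot differ for a gene with 1 probe. HERPUD1, at -1.27, met the same rule, and HSPA5 missed it, at -1.01 by its brightest probe and -0.15 by its other probe. Their place beside the 9 genes follows largely from that rule and is not a separate result. All 23 genes of the branch ranged from -2.94 to 0.92. The sensor of the branch, EIF2AK3 (PERK), was not among the 9 and read 0.11 and 0.56. In the promoter windows of this list the composite element was found in 5 of 20 genes (25%), against 3.14% of all windows. These were ASNS, ATF3, CEBPG, CHAC1 and PPP1R15B, of which only ASNS and ATF3 were called at 2-fold. An ERSE or ERSE-II was found in 0 of 20. The list was written as genes of the ATF4 branch, so its higher share of the composite element is not a result of these data. A gene was again counted once if any of its windows held the motif, whereas the share over all windows counts each window. In the other related lists SRPRB (-0.09) and MCFD2 (0.29) held the composite element. The 356 measured genes with this element had a median of 0.0047. HERPUD1 was the only gene of the members and the PERK and ATF4 list whose window held both a composite element and an ERSE-II.

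**Figure D5:**
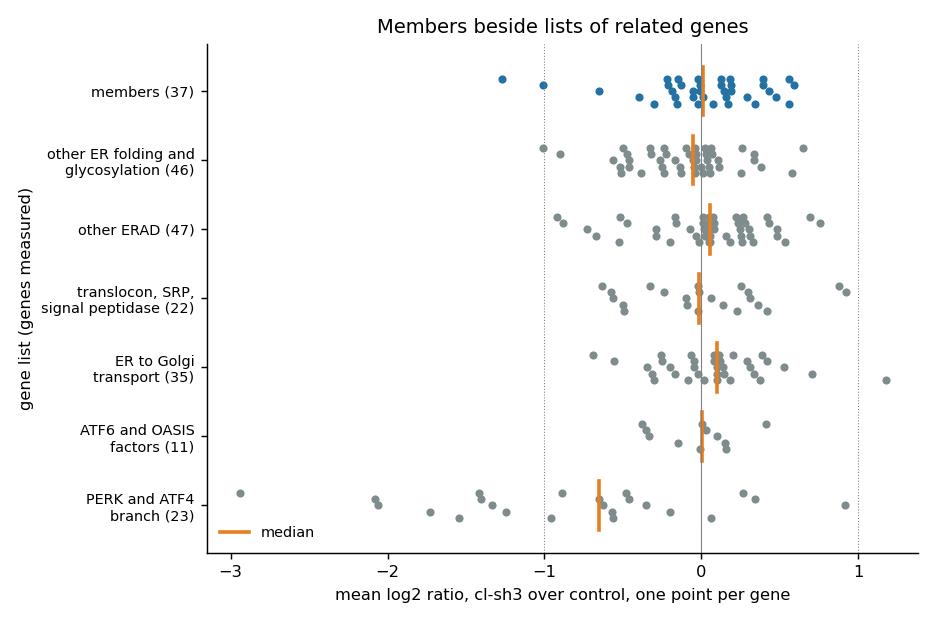
Mean log2 ratio of cl-sh3 over control (horizontal axis) for each measured gene of the member list and of 6 lists of related genes (vertical axis, number measured in parentheses), with the median of each list as an orange line and dotted lines at 2-fold. The medians lie between -0.05 and 0.10 except for the PERK and ATF4 branch, whose median was -0.65.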

How the data were processed

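For each hybridization the authors deposited spot intensity values from Agilent Feature Extraction (10.5.1.1 in the file headers, 8.5.1.1 in the submitters' processing notes), with local backgrounds and flags, and a log10 ratio of the Cy5 over the Cy3 channel computed by that software. The deposited series table holds log10 ratios that equal the software's to within 0.00245 and 0.005. In limma 3.58.1 (R 4.3.3), normexp with an offset of 50 was applied to the median pixel intensity and median local background. Control spots were then dropped, outlier-flagged spots (153 and 144) set to missing, each of the 2 arrays normalized by loess, spots of a probe averaged, and the log2 ratios signed as cl-sh3 over control. Median foreground values were used because the files hold no mean foreground. A probe was kept when at least 1 RNA, the same in both hybridizations, was well above background on at least 50% of its spots in each.

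Gene symbols came from a GRCh38.p14 RefSeq table, which held 18023 of the 19228 RefSeq accessions on the arrays, and RUNX2 through an accession paired with it by the study's gene list. Coordinates are given for promoter windows only, since the arrays were annotated on another build. Named genes were all members, RUNX2 and the genes of the related lists past 2-fold in both hybridizations. EIF2AK3, BBC3, SEC61G, HSPA13 and the genes listed for promoter motifs were named after their values were seen. The members and lists were chosen with earlier results of these data known. The procedure was tested on simulated data. Alternatives were an offset of 0, intensities without background correction, centring on the median, Aquantile, flagged spots kept, other detection filters, the software's and the deposited ratios, the mean or the dimmest probe of a gene (the latter added after the data were seen) and each hybridization alone. The number of arrays limits the precision. Motifs and figures were made with Python 3.11.15, numpy 2.4.6, pandas 2.3.3 and matplotlib 3.10.9.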

Additional observations from a re-analysis of the deposited data

How the results depend on the processing

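The count of members at least 2-fold lower was 1 (HERPUD1) under every alternative that kept both hybridizations except the scanner software's ratios and the deposited table, which gave 0, and it ranged from 1 to 2 with each hybridization alone, HSPA5 being added by hybridization 1. At 1.5-fold lower, HERPUD1 was called under all 13 alternatives, but some of them could not alter its call. Its ratios were unchanged by Aquantile and by the other detection filters, and its 1 probe left no choice of probe. The deposited ratios also nearly repeat the software's. EDEM3 was lost without background correction and with median centring. HSPA5 was lost with the mean or the dimmest of its probes, at -0.58 and -0.15. The count at 1.5-fold higher, 0 in the report, was 1 with offset 0 (SDF2L1), 2 with median centring (P4HB and SDF2L1), and 1 to 4 with each hybridization alone. The median of the members was 0.0755 with median centring, 0.0724 with the software's ratios, 0.0724 with the deposited table and between -0.0073 and 0.066 with each hybridization alone. Of 37 members, 21 kept the sign of their mean under every alternative in which they were measured and 16 did not. ERN1 is among the 21 but had 12 alternatives, since it was not measured when both RNAs had to be well above background. The cause of these changes was not tested. No paired analysis was possible because the hybridizations are a dye swap of 1 pair of RNAs and give no test. With 1 pair of clones, only technical error can be seen, and for the 21 members with 1 probe no other probe could be compared.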
